A study of Rattus norvegicus with 24 samples.

Results

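A set of 56 genes was lower in INS-1 cells after 1 h of GLP-1 and after 1 h of BMS-21 than in Control. The genes were chosen by their measured values at 1 h. The log2 ratio of the mean normalised count plus 1 was at most -0.5 for each agent against Control, and the mean count over the 8 libraries of each comparison was at least 20. Of 11909 genes at or above that mean in both comparisons and 26404 genes in all, 74 met the rule. Of these, 18 were then set aside by symbol (those starting Klf, Ier, Dusp, Spry, Zfp36, Rgs, Kcn or Arrdc, and Txnip, Mycn, Adora2b, Neurod1, Bbc3, Nr1d1, Bhlhe40, Tob1, Tob2, Smad6 and Smad7), which left the 56. Each agent on its own lowered few genes by this rule, 102 of 11946 (0.854%) for GLP-1 and 117 of 11946 (0.979%) for BMS-21, and both comparisons share the 4 Control libraries. The difference at 1 h is therefore what defines the genes, and it is described below without a test.

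INS-1 cells are an insulin-secreting line from a rat insulinoma and stand in for beta cells, so all results come from 1 tumour-derived line. The 6 groups of 4 libraries were GLP-1 (the gut hormone glucagon-like peptide 1, 100 nM), BMS-21 (a compound known only by this code name, 1 µM) and Control (the vehicle DMSO), each after 1 h or 6 h. All groups had 90 min in medium with 3 mM glucose and then fresh medium with 11 mM glucose together with the treatment. The labels do not say whether a replicate was its own culture. Principal components were taken of the deviations of all libraries from their group means, so differences between agents and times were removed first. On the first component (18.2% of that remaining variance) every library of replicates 1 and 2 lay on one side (at most -4.72). Every library of replicates 3 and 4 lay on the other (at least 4.10), and what the numbers mark is not given. The p-values below thus reflect only how these samples varied, and that variation may be technical. In these bulk libraries fewer cells of a type and less RNA per cell cannot be told apart.

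The libraries held 10667350 to 13148970 reads assigned to genes, and levels are given as reads per 1000000 (RPM) after TMM scaling. The floor set at 3 reads was 0.228 to 0.281 RPM, for counting error only. Markers fitted the label of a beta cell line. The summed level of 9 beta-cell genes was 15294 to 16680 RPM in the Control libraries and 16169 to 19407 RPM in the treated ones. Among genes of other islet cells, Gcg reached 14.1 RPM, and Sst, Ppy and Hhex never passed 0.166 RPM. Cela1 and Amy2a3, which mark acinar cells, were at 0 in all 24 libraries, and Cpa1, Cel and Prss1, which also mark them, never passed 0.244 RPM. Of the duct markers Krt7 reached 85.5 RPM, Sox9 5.54 RPM and Krt19 0.0828 RPM. The sum of 7 stromal, endothelial and immune genes was 2.21 to 2.83 RPM in Control at 6 h against 3.33 to 6.95 RPM in the treated libraries at 6 h. Most of this sum was 1 gene, the endothelial receptor gene Kdr (mean 3.70 RPM over all libraries), which rose at 6 h with GLP-1 (1.29 ± 0.19, adjusted p = 1.80e-05 with limma) and BMS-21 (1.22 ± 0.18, adjusted p = 1.34e-05). None of the other 6 passed 1.24 RPM in any library. The part of these markers in the results was not tested.

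The GLP-1 receptor couples to Gs and raises cAMP in beta cells, which activates protein kinase A and the transcription factor CREB. Many genes with CREB sites respond within the hour, and the messages of many transcription factors and signalling regulators are short-lived. By symbol, 10 of the 56 genes encode zinc finger proteins (Zfp189, Zfp870, Zfp763, Zfp551, Zfp39, Zfp46, Zfp503, Zkscan4, Zbtb3 and Sall2) and 5 other regulators of transcription (Six4, Hes1, Foxd2, Myc and Nr0b2). Receptors at the cell surface account for 7 (Ffar1, Ffar3, P2ry1, Hrh3, Fzd9, Rtn4r and Bambi) and ligands for 3 (Dll1, Prok2 and Efna1). Signalling proteins inside the cell make up 9 (Rap2b, Cdc42ep4, Cish, Trib1, Pik3ip1, Gprin2, Dact2, Phlda1 and Gadd45a). A further 6 handle RNA, DNA or proteins (Mex3b, Fam46c, Ddx28, Exo5, Mylip and Bbs10), 4 act in metabolism (Pdp2, Ppp1r3b, Cyp26b1 and B3galt4), and Anks4b, Lysmd4 and Rwdd2a are left. The remaining 9 carry no symbol (6 genes) or a placeholder symbol (LOC690918, LOC688765 and LOC682408). Zinc finger symbols made up 17.9% of the 56 and 2.07% of the 11909 genes (247), a pattern noticed in these data and given as a description.

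At 1 h the fitted log2 differences from Control ran from -1.90 to -0.49 with GLP-1 (median -0.69) and from -1.68 to -0.51 with BMS-21 (median -0.71), beside medians of -0.0015 and 0.00055 over all genes tested. Every treated library lay below every Control library for 51 of the 56 genes with each agent. These are the libraries that chose the genes, and the share over all genes was not counted, so the number is a description. With GLP-1 the groups overlapped for Efna1, Prok2, Foxd2 and 2 genes without a symbol, and with BMS-21 for Foxd2, Cyp26b1, Rwdd2a and 2 genes without a symbol. The values just inside the threshold were those of Zfp46 (ratios of -0.50 and -0.56 for GLP-1 and BMS-21), Ddx28 (-0.50 and -0.50) and Zkscan4 (-0.85 and -0.50). Just outside lay LOC100909688 (-0.72 and -0.497), a gene without a symbol (-0.497 and -0.549) and Wdr89 (-0.494 and -0.505), so the set has no gap at its edge. The depth behind the genes was modest, with a median level in Control at 1 h of 11.0 RPM (not per length) beside 31.9 RPM for all 11909 genes.

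The lowest ratios at 1 h belonged to a gene listed only as ENSRNOG00000018494, which stood at 15.7, 19.2, 15.7 and 13.8 RPM in Control, 4.13, 6.04, 3.20 and 3.96 RPM with GLP-1 and 5.30, 5.80, 3.97 and 4.74 RPM with BMS-21. Every treated library lay far below every Control library, a fitted log2 difference of -1.90 ± 0.15 with GLP-1 and -1.68 ± 0.12 with BMS-21 (here and below, the standard error follows a log2 difference). The next, ENSRNOG00000000034, stood at 15.7, 12.4, 11.6 and 12.4 RPM in Control, 3.73, 4.78, 5.80 and 5.23 RPM with GLP-1 and 4.80, 3.75, 5.56 and 4.47 RPM with BMS-21 (-1.41 ± 0.13 and -1.47 ± 0.13). Neither has a symbol in the tables, so nothing can be said of what they encode. ENSRNOG00000039248, also without a symbol, stood at 2.53, 3.41, 2.68 and 3.02 RPM in Control, 1.67, 1.09, 1.90 and 1.35 RPM with GLP-1 and 1.32, 1.22, 1.35 and 0.805 RPM with BMS-21 (-0.93 ± 0.21 and -1.26 ± 0.22). LOC690918, a placeholder gene, had 78.7, 83.9, 77.0 and 76.6 RPM in Control, 36.2, 42.6, 40.7 and 40.3 RPM with GLP-1 and 36.4, 44.4, 38.6 and 34.9 RPM with BMS-21, and treated and Control libraries were far apart (-0.98 ± 0.05 and -1.04 ± 0.06).

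Among genes of known product, Zfp189, a zinc finger protein with a KRAB repression domain, had the lowest mean ratio. It stood at 52.9, 54.3, 44.7 and 52.3 RPM in Control, 23.5, 24.1, 22.2 and 21.4 RPM with GLP-1 and 22.1, 22.8, 18.8 and 18.8 RPM with BMS-21 (-1.15 ± 0.07 and -1.30 ± 0.08). Another zinc finger gene, Zfp870, had few reads, with 3.75, 2.73, 2.36 and 4.06 RPM in Control, 1.35, 1.68, 1.56 and 1.18 RPM with GLP-1 and 0.745, 1.87, 1.75 and 1.79 RPM with BMS-21 (-1.09 ± 0.21 and -1.07 ± 0.26), and its lowest value lay in a single BMS-21 library. Phlda1, whose product has a pleckstrin-homology-like domain, stood at 37.1, 33.1, 42.1 and 34.1 RPM in Control, 17.2, 16.5, 20.2 and 18.7 RPM with GLP-1 and 16.1, 16.1, 20.5 and 16.8 RPM with BMS-21 (-1.002 ± 0.08 and -1.07 ± 0.09). In each of the 3 groups replicate 3 was its highest library. Bbs10, a chaperonin-like protein of the Bardet-Biedl syndrome gene group, stood at 11.4, 11.9, 9.99 and 11.3 RPM in Control, 5.79, 5.03, 5.37 and 4.89 RPM with GLP-1 and 4.39, 6.27, 5.16 and 7.24 RPM with BMS-21 (-1.07 ± 0.11 and -0.96 ± 0.13). Fam46c, a poly(A) polymerase also called Tent5c, stood at 28.2, 27.9, 27.4 and 25.7 RPM in Control, 13.6, 14.9, 15.2 and 13.0 RPM with GLP-1 and 12.3, 14.5, 13.9 and 13.9 RPM with BMS-21 (-0.94 ± 0.07 and -0.996 ± 0.07), and its Control and treated libraries were far apart. Gprin2, which binds G protein alpha subunits, ran at 2.61, 2.81, 2.19 and 2.59 RPM in Control, 1.19, 0.839, 1.38 and 0.843 RPM with GLP-1 and 1.49, 2.06, 1.67 and 0.805 RPM with BMS-21 (-1.22 ± 0.22 and -0.79 ± 0.24), with 1 BMS-21 library at the level of the GLP-1 group and the others between that level and Control. Six4, a homeobox transcription factor, stood at 13.7, 15.3, 15.6 and 16.1 RPM in Control, 7.14, 8.05, 8.48 and 7.08 RPM with GLP-1 and 7.62, 7.30, 8.82 and 9.30 RPM with BMS-21 (-0.97 ± 0.10 and -0.87 ± 0.10), and no treated library reached a Control library.

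Myc, the growth-promoting transcription factor, was lower by a similar amount but with a much wider spread. Its libraries stood at 69.8, 74.0, 115 and 93.1 RPM in Control, 37.8, 39.5, 67.2 and 47.8 RPM with GLP-1 and 38.0, 38.0, 68.3 and 45.8 RPM with BMS-21 (-0.88 ± 0.25 and -0.90 ± 0.25). Replicate 3 was the highest library of Myc in all 3 groups, at 115, 67.2 and 68.3 RPM, and replicate 4 the next. Prok2, the secreted peptide prokineticin 2, had the opposite order, with 19.4, 18.4, 10.8 and 13.4 RPM in Control, 11.5, 13.1, 7.01 and 7.50 RPM with GLP-1 and 9.44, 9.74, 7.55 and 5.36 RPM with BMS-21, and its replicates 3 and 4 were below replicates 1 and 2 in every group (-0.67 ± 0.28 and -0.94 ± 0.25). Libraries of the same replicate number thus moved together in these genes while the treated library lay below the Control library of its own number in every case.

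**Figure D1:**
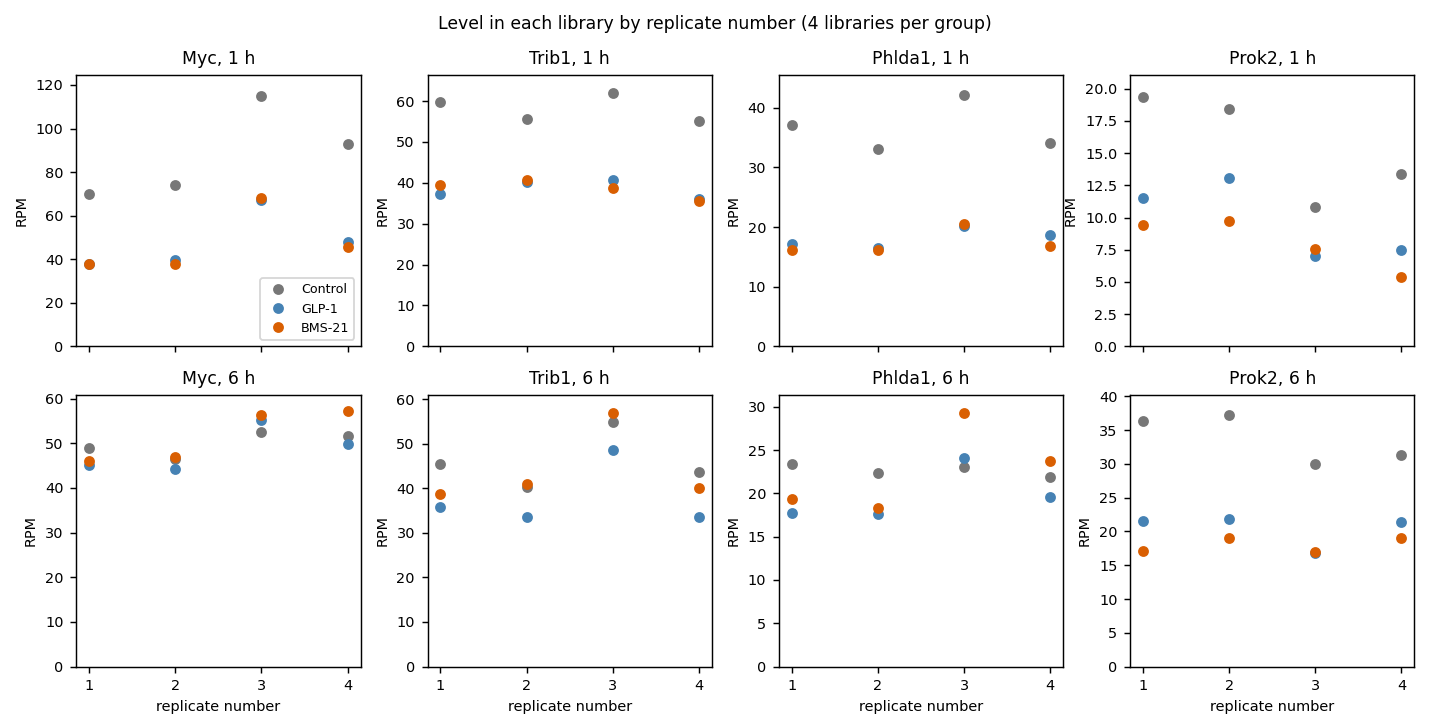
Levels of Myc, Trib1, Phlda1 and Prok2 in RPM (vertical axes, from 0) in each library by replicate number (horizontal axes), at 1 h above and 6 h below, for Control (grey), GLP-1 (blue) and BMS-21 (orange). At 1 h the Control library of each number lies above both treated ones, and Trib1 at 6 h is highest in replicate 3 of every group (54.9, 48.6 and 56.9 RPM).

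The Notch pathway contributed a ligand and a target. Notch receptors, bound by ligands such as Delta-like 1 (Dll1) on a neighbouring cell, release a fragment that activates transcription with the DNA-binding factor RBPJ, and the repressor gene Hes1 is its classical target. Hes1 stood at 29.3, 30.4, 24.3 and 27.2 RPM in Control, 15.7, 13.7, 13.6 and 14.3 RPM with GLP-1 and 15.6, 15.9, 13.9 and 13.7 RPM with BMS-21 (-0.95 ± 0.08 and -0.90 ± 0.08). Dll1 had far fewer reads, with 3.51, 3.66, 3.49 and 3.02 RPM in Control, 2.22, 1.43, 1.90 and 1.69 RPM with GLP-1 and 2.07, 2.25, 2.07 and 1.79 RPM with BMS-21 (-0.90 ± 0.18 and -0.72 ± 0.17). No treated library of either gene reached a Control library. Of the 21 genes of the Notch list the other 12 that could be tested gave few calls. With GLP-1 0 fell and 2 rose (limma, all genes adjusted together; 1 and 2 at an unadjusted p under 0.05, 0 and 2 with edgeR, 0 and 1 with DESeq2), and with BMS-21 1 fell and 2 rose. The feedback inhibitor gene Nrarp rose (0.94 ± 0.22, adjusted p = 0.00598 with limma, and 0.91 ± 0.22, adjusted p = 0.0118), and so did the receptor gene Notch4 (0.47 ± 0.12 and 0.49 ± 0.12). The Notch4 calls ended when a single library was left out, for GLP-1 either replicate 1 or 4 of GLP-1 or replicate 1 or 3 of Control (adjusted p 0.0521 to 0.0852), and for BMS-21 either replicate 1 of BMS-21 or replicate 3 of Control (0.0691 to 0.0695). Hes6 fell with BMS-21 (-0.31 ± 0.08, adjusted p 0.0840 to 0.0908 with replicate 4 of BMS-21 or replicate 1 of Control left out).

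Promoter sequence could be read for 38 of the 47 genes matched by symbol, as 250 bases before and 50 after the RefSeq start in the GRCr8 build. Motifs were searched by their letters on both strands. GTGGGAA, the core that RBPJ binds, was in 7 of the 38 windows (18.4%), against 6.29% of 8612 windows of the genes with a mean of at least 20 and 6.19% of all 27457. CCAAT was in 52.6%, 37.5% and 37.7%. TGACG, the core of the cAMP response element, was in 9 windows (23.7%, 33.3% and 22.0%), and the full site TGACGTCA, which holds it, in 1, that of Ddx28 (2.63%, 3.40% and 1.91%). The shares for the other 6 motifs among the members were 10.5% for CACGTG, 68.4% for GGGCGG, 10.5% for TATAAA, 5.26% for GTAAACA, 5.26% for GGAATG and 15.8% for CCGGAAG, beside 9.68%, 64.9%, 5.83%, 2.10%, 10.3% and 18.8% in the windows of the 8612 genes. The median GC content was 61.3% in the members and 61.7% in those genes. A match is a description of the letters and not a binding site. The 250 bases before the start are shown for Hes1 and Dll1, the Notch pair, with GTGGGAA or its complement in capitals, and for Ffar1 and Bambi, which were both lower at 1 h and on opposite sides of Control at 6 h, with TGACG in capitals. They lie at chr11:84213046-84213295, minus strand, chr1:64993275-64993524, minus strand, chr1:95239690-95239939, minus strand and chr17:58821004-58821253, minus strand. Each is written 5′ to 3′ toward the gene.
Hes1: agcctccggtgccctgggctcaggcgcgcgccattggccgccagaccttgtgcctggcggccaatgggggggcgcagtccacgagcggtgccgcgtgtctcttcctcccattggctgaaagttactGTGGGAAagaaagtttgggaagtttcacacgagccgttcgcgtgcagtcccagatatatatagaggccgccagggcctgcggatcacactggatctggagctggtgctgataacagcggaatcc
Dll1: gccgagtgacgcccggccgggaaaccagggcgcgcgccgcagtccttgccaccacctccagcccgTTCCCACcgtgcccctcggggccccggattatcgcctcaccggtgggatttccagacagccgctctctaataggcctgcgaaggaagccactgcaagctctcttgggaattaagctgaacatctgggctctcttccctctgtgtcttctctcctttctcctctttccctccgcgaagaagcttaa
Ffar1: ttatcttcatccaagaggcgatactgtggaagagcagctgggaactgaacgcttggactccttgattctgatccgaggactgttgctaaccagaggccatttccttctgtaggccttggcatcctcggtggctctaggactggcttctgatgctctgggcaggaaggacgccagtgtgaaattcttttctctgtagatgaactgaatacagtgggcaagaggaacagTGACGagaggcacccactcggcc
Bambi: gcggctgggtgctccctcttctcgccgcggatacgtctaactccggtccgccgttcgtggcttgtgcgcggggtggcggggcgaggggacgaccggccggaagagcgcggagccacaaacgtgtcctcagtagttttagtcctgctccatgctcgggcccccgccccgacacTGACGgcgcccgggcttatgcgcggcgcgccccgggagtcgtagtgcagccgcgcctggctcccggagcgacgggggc
The first base of the match lies 124 bases before the start in Hes1, 185 in Dll1, 23 in Ffar1 and 78 in Bambi. The Bambi window holds another match to TGACG or its complement, 6 bases after the start and so outside the printed bases.

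The libraries do not mark strand, and 12 of the 47 matched genes overlap another RefSeq gene in GRCr8, so reads of the 2 cannot be told apart there. For 5 of them the partner was measured and lay close to Control at 1 h with GLP-1 and BMS-21. Fam120b, which overlaps Dll1, was at 0.03 ± 0.05 and 0.01 ± 0.05, and Mnat1, which overlaps Six4, at -0.06 ± 0.07 and -0.12 ± 0.06. Polr2g beside Zbtb3 was at 0.04 ± 0.05 and 0.02 ± 0.05, Limk2 beside Pik3ip1 at -0.10 ± 0.06 and -0.07 ± 0.05, and Dus2 beside Ddx28 at -0.04 ± 0.10 and 0.08 ± 0.10. Among the members, Ffar1 and Ffar3 are nearest coding neighbours, and so are P2ry1 and Rap2b.

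Several members are receptors of the beta cell surface. Ffar1 (GPR40) senses long-chain fatty acids and potentiates insulin secretion, and Ffar3 (GPR41) senses short-chain fatty acids and couples to Gi. Ffar1 stood at 17.5, 19.2, 17.0 and 14.5 RPM in Control, 10.0, 12.1, 10.6 and 9.44 RPM with GLP-1 and 10.8, 10.9, 9.93 and 9.57 RPM with BMS-21 at 1 h (-0.68 ± 0.10 and -0.72 ± 0.09). Ffar3 stood at 10.0, 11.3, 8.61 and 8.12 RPM in Control, 5.72, 6.12, 6.66 and 7.34 RPM with GLP-1 and 5.96, 7.02, 6.52 and 5.63 RPM with BMS-21 (-0.54 ± 0.12 and -0.58 ± 0.12). Both genes kept every treated library under every Control library. Hrh3, the Gi-coupled histamine H3 receptor, was near the lower end of what the depth resolves, with 3.10, 3.24, 3.49 and 4.49 RPM in Control, 1.83, 2.52, 1.73 and 1.77 RPM with GLP-1 and 1.90, 2.06, 2.46 and 1.97 RPM with BMS-21 (-0.84 ± 0.18 and -0.74 ± 0.18). P2ry1, a receptor for ADP, was -0.64 ± 0.06 and -0.61 ± 0.07 from Control, the Wnt receptor gene Fzd9 -0.64 ± 0.10 and -0.60 ± 0.10, and the Nogo receptor gene Rtn4r -0.52 ± 0.12 and -0.76 ± 0.12. Bambi, a decoy receptor that damps TGF-beta family signals, stood at 62.3, 53.1, 48.2 and 50.3 RPM in Control, 35.5, 29.2, 32.2 and 31.2 RPM with GLP-1 and 29.5, 26.5, 31.4 and 27.2 RPM with BMS-21 (-0.73 ± 0.07 and -0.89 ± 0.07). Efna1, the membrane-bound ligand ephrin A1, ran at 4.73, 5.20, 2.92 and 4.23 RPM in Control, 0.794, 2.94, 2.68 and 2.45 RPM with GLP-1 and 2.32, 1.78, 2.46 and 2.06 RPM with BMS-21 (-1.04 ± 0.39 and -0.94 ± 0.19), and replicate 1 of GLP-1 was well below the others.

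Genes of signalling inside the cell included Cish, a member of the SOCS family that restrains cytokine receptors, at 49.8, 46.7, 47.1 and 45.8 RPM in Control, 27.4, 28.1, 27.0 and 29.7 RPM with GLP-1 and 26.7, 22.2, 28.6 and 23.5 RPM with BMS-21 (-0.75 ± 0.06 and -0.91 ± 0.07). Rap2b, a small GTPase of the Ras family, stood at 4.24, 4.60, 4.95 and 4.15 RPM in Control, 2.30, 2.52, 3.55 and 2.19 RPM with GLP-1 and 2.90, 2.06, 3.42 and 2.32 RPM with BMS-21 (-0.77 ± 0.17 and -0.75 ± 0.17). Replicate 3 was the highest Rap2b library in Control as well as with GLP-1 and BMS-21. Trib1, a pseudokinase that directs proteins to degradation, stood at 59.7, 55.5, 62.0 and 55.2 RPM in Control, 37.3, 40.1, 40.8 and 36.1 RPM with GLP-1 and 39.5, 40.6, 38.7 and 35.5 RPM with BMS-21 (-0.59 ± 0.06 and -0.59 ± 0.06). The stress gene Gadd45a stood at 44.9, 49.6, 46.2 and 43.6 RPM in Control, 31.9, 28.5, 35.0 and 28.6 RPM with GLP-1 and 26.9, 33.6, 32.5 and 28.6 RPM with BMS-21 (-0.57 ± 0.07 and -0.60 ± 0.07). All 4 genes had treated libraries wholly below Control. The Dishevelled antagonist gene Dact2 was -0.81 ± 0.07 and -0.68 ± 0.07, the PI3-kinase inhibitor gene Pik3ip1 -0.75 ± 0.16 and -0.79 ± 0.18, and the Cdc42 effector gene Cdc42ep4 -0.58 ± 0.06 and -0.57 ± 0.06. Close to the threshold that chose the genes, Zfp46 stood at 9.87, 11.6, 10.7 and 10.5 RPM in Control, 7.22, 7.88, 7.36 and 7.42 RPM with GLP-1 and 6.62, 6.83, 7.79 and 7.42 RPM with BMS-21, Zkscan4 at 3.84, 4.77, 3.74 and 4.15 RPM in Control, 2.54, 2.26, 1.64 and 2.53 RPM with GLP-1 and 3.06, 3.56, 2.22 and 2.68 RPM with BMS-21, and the RNA helicase gene Ddx28 at 7.34, 8.26, 8.20 and 7.43 RPM in Control, 4.37, 6.21, 6.92 and 4.38 RPM with GLP-1 and 5.79, 5.43, 4.77 and 5.90 RPM with BMS-21.

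Other genes of the pathways these members belong to were also tested at 1 h. The 10 lists of pathway genes held 103 non-members that could be tested with GLP-1, of which 3 fell and 19 rose (2.41% and 4.17% of all genes tested), and 102 with BMS-21, of which 6 fell and 19 rose (2.37% and 3.54%). With replicate 3 of GLP-1 left out 5 fell with GLP-1, and with replicate 1 of Control left out 3 fell with BMS-21. With the replicate number as a block 8 fell with GLP-1, and the share of all genes with the block was not counted. Their median log2 differences were 0.02 and 0.01. At 6 h, of 99 tested, 20 fell and 21 rose with GLP-1 (15.6% and 16.2% of all genes tested), and 19 fell and 27 rose with BMS-21 (16.8% and 16.8%).

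In the p53 target list, beside the member Gadd45a, 0 of 15 fell and 4 rose with GLP-1 (limma; 0 fell at an unadjusted p under 0.05, with edgeR and with DESeq2) and 1 fell and 4 rose with BMS-21. The kinase genes Plk2 (2.05 ± 0.06 and 1.92 ± 0.06) and Plk3 (0.73 ± 0.05 and 0.69 ± 0.06) and the growth-restraining gene Btg2 (2.32 ± 0.08 and 2.35 ± 0.08) rose. In the list of BMP and TGF-beta targets, beside Bambi, 0 of 11 fell with either agent (limma; 0 at an unadjusted p, with edgeR and with DESeq2) and 3 rose with each, the inhibitors of differentiation Id2 (0.68 ± 0.07 and 0.69 ± 0.07) and Id4 (1.78 ± 0.10 and 1.80 ± 0.11) and the SMAD corepressor gene Skil (0.99 ± 0.09 and 0.78 ± 0.11). The SOCS and cytokine feedback list, beside Cish, had 0 of 10 lower (limma; 1 at an unadjusted p, 0 with edgeR and DESeq2, for each agent) and 3 and 4 higher, with Socs5 (0.62 ± 0.05 and 0.60 ± 0.05) and the kinase genes Pim3 (0.49 ± 0.04 and 0.53 ± 0.05) and Pim1 (0.62 ± 0.07 and 0.56 ± 0.08). A gene of these lists at -0.5 or below with both agents would itself be a member, so the sides on which members and other genes lay are partly set by the rule. The lists do not hold Smad6, Smad7 or Bbc3, which are among the symbols set aside, so these genes do not enter the counts.

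The list of FOXO factors and targets, beside Trib1, had 2 of 18 lower and 4 higher with GLP-1, and 2 lower and 3 higher with BMS-21. Foxo1 fell (-0.37 ± 0.05 and -0.29 ± 0.05), while the cell cycle inhibitor gene Cdkn1b (0.44 ± 0.04 and 0.34 ± 0.04) and Ccng2 (0.44 ± 0.06 and 0.46 ± 0.06) rose. The NF-kappaB list, which holds no member, had 1 of 10 lower and 3 higher with each agent. The inhibitor gene Nfkbia fell (-0.29 ± 0.06 and -0.28 ± 0.06), and Nfkb2 (0.38 ± 0.06 and 0.35 ± 0.06) and Nfkbie (0.30 ± 0.08 and 0.47 ± 0.09) rose. The Nfkbie call with GLP-1 ended with replicate 1 or 2 of GLP-1 or replicate 3 of Control left out (adjusted p 0.0647 to 0.107). Of the YAP/TEAD targets 1 of 12, Fjx1, fell with BMS-21 (-0.47 ± 0.12, adjusted p 0.0546 to 0.108 with replicate 1 or 2 of BMS-21 or 1 or 3 of Control left out). With limma 0 of 11 other Bardet-Biedl genes, 0 of 4 relatives of Six4 (the homeobox and Eya list) and 0 of 1 other PHLDA gene passed with either agent, and edgeR and DESeq2 gave 0 as well. At an unadjusted p under 0.05, 1 Bardet-Biedl gene was lower with BMS-21 and 1 relative of Six4 with each agent.

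The libraries at 6 h were not used to choose the genes, so the same contrast could be tested there. All 56 genes passed the filter (a mean normalised count of at least 10). With GLP-1 28 of the 56 fell, 5 rose and 23 did not pass (limma, adjusted p under 0.05), in a comparison in which 15.6% of all genes tested fell and 16.2% rose. The share of members that fell was 50.0%, with a median log2 difference of -0.31 beside -0.00065 over all genes. With BMS-21 24 fell, 4 rose and 28 did not pass, where 16.8% of all genes fell and 16.8% rose, a share of 42.9%, with a median of -0.22 beside -0.0015. Both comparisons share the 4 Control libraries at 6 h. In replicates 1 and 2 alone 29 fell and 5 rose with GLP-1 and 26 and 4 with BMS-21, and in replicates 3 and 4 alone 20 and 3, and 21 and 3. The shares of all genes that fell or rose in these pairs were not counted, so these numbers are descriptions. All 33 calls with GLP-1 and all 28 with BMS-21 had the same direction in both pairs of replicates. The pairs are parts of the libraries that gave the calls, so this is no separate test. Leaving out any 1 library kept 25 of the 33 and 23 of the 28.

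**Figure D2:**
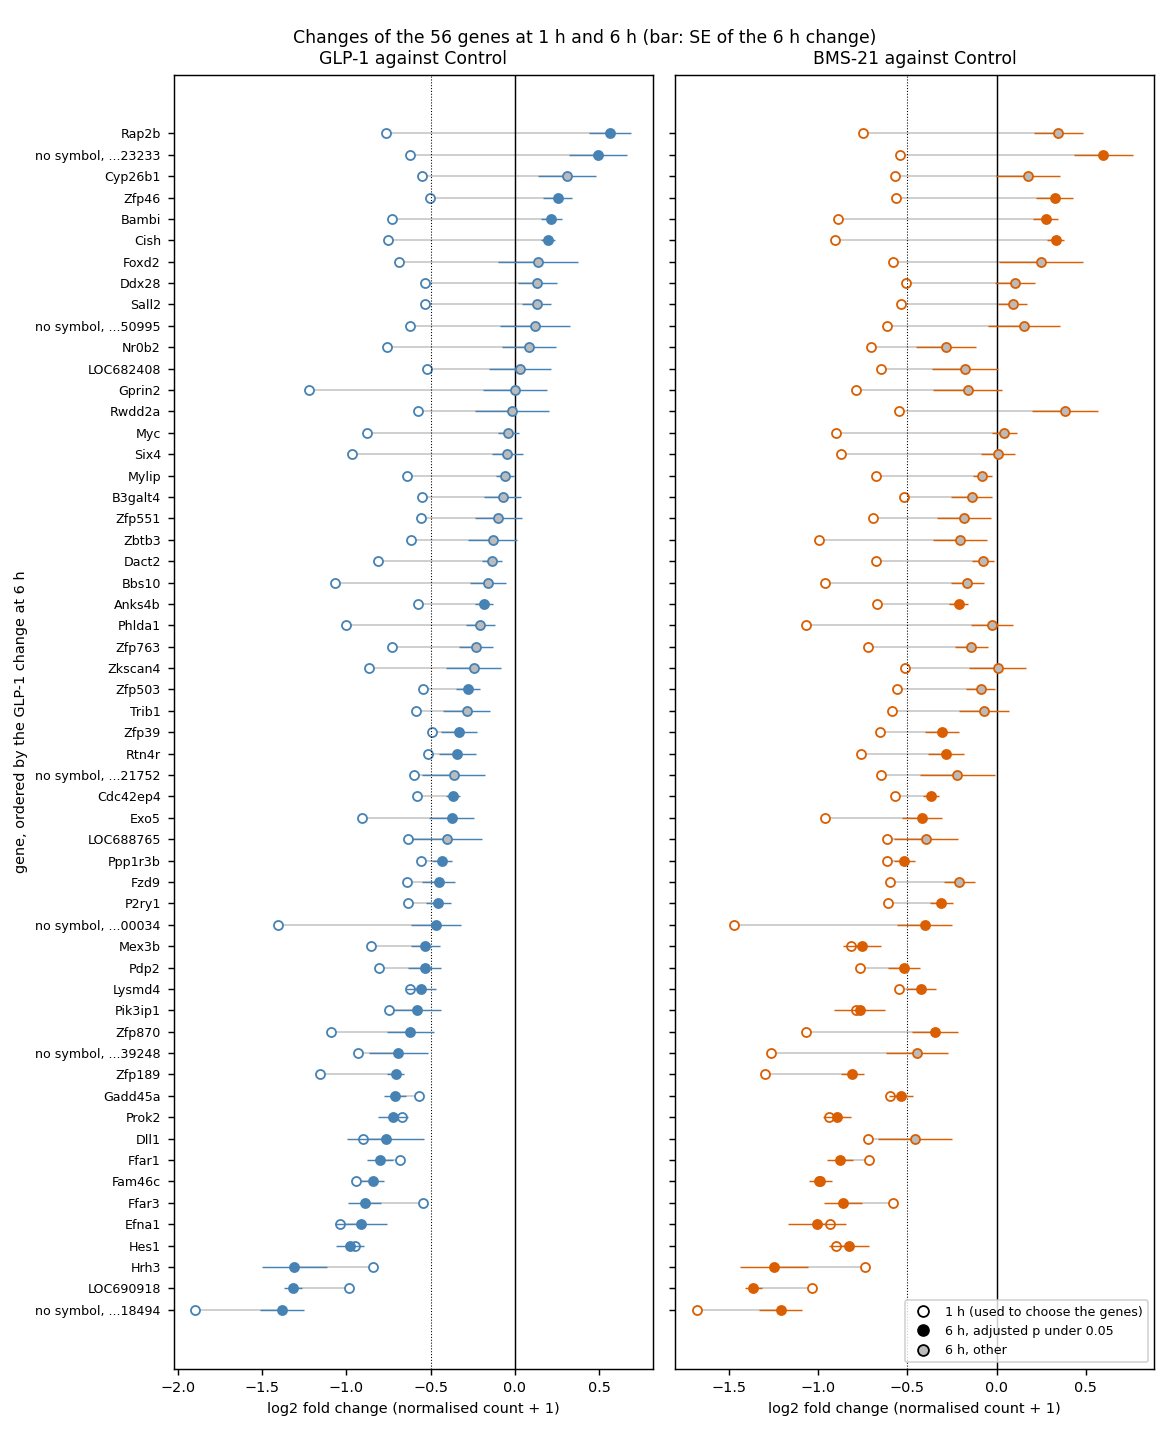
Log2 fold change against Control (horizontal axes, on the log2 scale of the normalised count plus 1) of the 56 genes for GLP-1 (left) and BMS-21 (right) at 1 h (open circles, the values that chose the genes) and at 6 h (filled circles with the standard error, grey inside where the adjusted p was not under 0.05). The dotted line marks -0.5, and all open circles lie near or left of it, while the 6 h values run from -1.38 to 0.57 with GLP-1 and from -1.36 to 0.60 with BMS-21.

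By role, 6 of the 7 receptors fell at 6 h with GLP-1 and 5 of 7 with BMS-21, and Bambi rose with both. The 3 ligands fell with GLP-1, and 2 of them with BMS-21. Of the zinc finger genes 4 of 10 fell and 1 rose with GLP-1, and 3 and 1 with BMS-21. Of the 5 other transcription regulators Hes1 alone fell, with each agent. Among signalling proteins inside the cell 3 of 9 fell and 2 rose with GLP-1, and 3 and 1 with BMS-21. Genes of RNA, DNA and protein handling had 3 of 6 lower, and those of metabolism 2 of 4, with each agent. With the replicate number as a block, Phlda1 and Trib1 among the signalling proteins and the zinc finger gene Zfp763 fell with GLP-1 as well (limma adjusted p = 0.0125, 1.01e-06 and 0.0292). These counts are descriptions, and differences between the roles were not tested.

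Hes1, the gene of those 5 other regulators that fell at 6 h, stood at 17.9, 19.4, 19.2 and 18.6 RPM in Control, 9.44, 9.79, 10.1 and 8.54 RPM with GLP-1 and 9.21, 8.66, 13.8 and 11.2 RPM with BMS-21. It was 1.97-fold lower with GLP-1 (-0.98 ± 0.08, adjusted p = 7.55e-09) and 1.77-fold lower with BMS-21 (-0.83 ± 0.11, adjusted p = 8.86e-06), with no overlap of the groups. Its Control level was itself lower at 6 h than at 1 h, by 0.56 on the log2 scale. Dll1 stood at 2.14, 2.74, 3.23 and 1.80 RPM in Control, 1.57, 1.26, 1.90 and 0.969 RPM with GLP-1 and 1.91, 1.60, 2.08 and 1.43 RPM with BMS-21. It fell with GLP-1 (-0.77 ± 0.23, adjusted p = 0.0145, 0.0578 to 0.0621 with replicate 3 of Control or 4 of GLP-1 left out) and did not pass with BMS-21 (-0.46 ± 0.21, adjusted p = 0.0955, 0.0417 with replicate 4 of Control left out). The groups of Six4 and Myc overlapped with Control, and neither gene passed. Six4 stood at 11.1, 11.6, 12.7 and 14.2 RPM in Control, 10.9, 12.0, 12.8 and 12.2 RPM with GLP-1 and 12.4, 11.3, 14.2 and 11.9 RPM with BMS-21 (-0.04 ± 0.09, adjusted p = 0.765, and 0.01 ± 0.10, adjusted p = 0.952). Myc stood at 49.0, 46.4, 52.5 and 51.7 RPM in Control, 45.1, 44.3, 55.1 and 49.9 RPM with GLP-1 and 46.0, 47.0, 56.3 and 57.3 RPM with BMS-21 (-0.04 ± 0.06, adjusted p = 0.694, and 0.04 ± 0.07, adjusted p = 0.668).

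Both fatty acid receptor genes fell at 6 h. Ffar1 stood at 20.2, 22.4, 21.6 and 22.0 RPM in Control, 12.7, 11.3, 12.0 and 13.3 RPM with GLP-1 and 11.9, 11.9, 11.9 and 11.0 RPM with BMS-21, 1.74-fold lower with GLP-1 (-0.80 ± 0.08, adjusted p = 5.16e-08) and 1.84-fold lower with BMS-21 (-0.88 ± 0.07, adjusted p = 5.69e-09). Its neighbour Ffar3 stood at 14.2, 13.8, 11.5 and 12.8 RPM in Control, 6.71, 7.11, 6.74 and 7.31 RPM with GLP-1 and 6.55, 6.99, 6.57 and 8.53 RPM with BMS-21, 1.85-fold lower (-0.89 ± 0.10, adjusted p = 3.06e-07) and 1.82-fold lower (-0.86 ± 0.11, adjusted p = 1.25e-06). No treated library of either receptor reached Control, and the Control level of both was above that at 1 h, by 0.34 and 0.45 on the log2 scale. Hrh3 had 3.81, 2.91, 2.59 and 2.70 RPM in Control, 1.16, 1.17, 1.03 and 1.23 RPM with GLP-1 and 1.24, 1.22, 1.08 and 1.27 RPM with BMS-21, the treated libraries all between 1.03 and 1.27 RPM. It was 2.48-fold lower with GLP-1 (-1.31 ± 0.19, adjusted p = 1.84e-05) and 2.38-fold lower with BMS-21 (-1.25 ± 0.19, adjusted p = 2.53e-05). P2ry1 fell too (-0.45 ± 0.07 and -0.31 ± 0.06), as did Rtn4r (-0.34 ± 0.11, adjusted p = 0.0213, and -0.28 ± 0.10, adjusted p = 0.0371), whose calls were lost without any of 3 libraries with GLP-1 (replicate 1 of GLP-1, 2 or 4 of Control) and any of 6 with BMS-21 (replicate 1, 2 or 3 of BMS-21, 2, 3 or 4 of Control), with adjusted p 0.0530 to 0.103. Fzd9 fell with GLP-1 (-0.45 ± 0.10, adjusted p = 0.00233) and did not pass with BMS-21 (-0.21 ± 0.08, adjusted p = 0.0681, 0.0142 to 0.0481 with replicate 3 of BMS-21 or 3 or 4 of Control left out).

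Among the ligands, Efna1 stood at 6.41, 6.40, 4.28 and 5.98 RPM in Control, 3.56, 2.85, 2.85 and 2.73 RPM with GLP-1 and 3.57, 2.58, 2.58 and 2.55 RPM with BMS-21, 1.88-fold lower (-0.91 ± 0.15, adjusted p = 8.71e-05) and 2.01-fold lower (-1.01 ± 0.16, adjusted p = 3.58e-05). Prok2 stood at 36.3, 37.3, 30.0 and 31.4 RPM in Control, 21.5, 21.8, 16.8 and 21.4 RPM with GLP-1 and 17.1, 19.0, 17.0 and 19.1 RPM with BMS-21, 1.65-fold lower (-0.72 ± 0.09, adjusted p = 3.13e-06) and 1.86-fold lower (-0.89 ± 0.08, adjusted p = 6.96e-09). All treated libraries of both genes lay below Control. The Control level of Prok2 was higher at 6 h than at 1 h by 1.12 on the log2 scale, the largest such rise among the 56 genes.

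Of the 9 genes with no symbol or a placeholder symbol, 4 fell at 6 h, 1 rose and 4 did not pass with GLP-1. With BMS-21 3 fell, 1 rose and 5 did not pass. ENSRNOG00000018494 stood at 13.5, 16.2, 15.8 and 14.5 RPM in Control, 4.89, 7.36, 6.42 and 4.49 RPM with GLP-1 and 5.81, 7.22, 7.90 and 5.10 RPM with BMS-21, 2.6-fold lower with GLP-1 (-1.38 ± 0.13, adjusted p = 9.17e-08) and 2.32-fold lower with BMS-21 (-1.21 ± 0.12, adjusted p = 7.23e-08). ENSRNOG00000039248 stood at 3.36, 3.74, 2.99 and 3.85 RPM in Control, 1.66, 2.59, 2.38 and 1.94 RPM with GLP-1 and 3.07, 3.04, 2.08 and 2.07 RPM with BMS-21. It fell with GLP-1 (-0.69 ± 0.17, adjusted p = 0.00421) and did not pass with BMS-21 (-0.45 ± 0.17, adjusted p = 0.0527, 0.0301 to 0.0420 with replicate 1 or 2 of BMS-21 or 3 of Control left out). LOC690918 stood at 106, 105, 96.6 and 102 RPM in Control, 38.8, 45.0, 38.1 and 42.3 RPM with GLP-1 and 39.0, 40.3, 40.4 and 39.1 RPM with BMS-21, 2.49-fold lower (-1.32 ± 0.05, adjusted p = 9.16e-14) and 2.58-fold lower (-1.36 ± 0.05, adjusted p = 1.75e-15). Its treated levels at 6 h were about those at 1 h, while its Control level was higher by 0.37 on the log2 scale. ENSRNOG00000000034, second at 1 h, had a Control level at 6 h of 5.80, 4.24, 5.58 and 4.42 RPM, lower than at 1 h by 1.36 on the log2 scale, and treated levels of 3.48, 3.01, 4.20 and 3.61 RPM with GLP-1 and 3.65, 2.96, 4.49 and 3.98 RPM with BMS-21. Its calls (-0.47 ± 0.15, adjusted p = 0.0192, and -0.40 ± 0.15, adjusted p = 0.0464) ended with 1 library left out, replicate 2 of GLP-1, 1, 2 or 4 of BMS-21, or 1 or 3 of Control (adjusted p 0.0603 to 0.153).

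Zfp189 stood at 81.3, 88.7, 83.3 and 87.6 RPM in Control, 50.0, 58.2, 50.0 and 50.2 RPM with GLP-1 and 49.5, 53.9, 41.7 and 50.0 RPM with BMS-21, 1.63-fold lower with GLP-1 (-0.71 ± 0.05, adjusted p = 1.26e-09) and 1.75-fold lower with BMS-21 (-0.81 ± 0.06, adjusted p = 4.87e-09). Its treated libraries were near the Control level of 1 h, and its Control level was higher than at 1 h by 0.74 on the log2 scale. Zfp870 stood at 6.79, 6.40, 5.34 and 4.91 RPM in Control, 3.73, 4.27, 3.33 and 3.70 RPM with GLP-1 and 4.40, 4.79, 4.74 and 4.30 RPM with BMS-21 and fell with GLP-1 (-0.62 ± 0.14, adjusted p = 0.00155). Its call with BMS-21 (-0.35 ± 0.13, adjusted p = 0.0457) ended with any single BMS-21 library, or replicate 1 or 2 of Control, left out (adjusted p 0.0520 to 0.159). Zfp503 fell with GLP-1 (-0.28 ± 0.07), and Zfp39 with both (-0.33 ± 0.11 and -0.30 ± 0.10). The Zfp39 calls ended with replicate 1 or 3 of GLP-1 left out (for GLP-1) or replicate 1 of Control (for both), with adjusted p 0.0562 to 0.0743. Of the threshold genes Zkscan4 stood at 4.35, 3.41, 4.28 and 3.28 RPM in Control, 3.31, 2.85, 4.12 and 2.64 RPM with GLP-1 and 5.06, 3.42, 3.33 and 3.67 RPM with BMS-21 and Ddx28 at 6.33, 7.23, 6.55 and 6.14 RPM in Control, 7.87, 6.03, 8.01 and 6.96 RPM with GLP-1 and 7.05, 6.61, 7.98 and 6.61 RPM with BMS-21, and neither passed with either agent. Zfp763 did not pass with GLP-1 (-0.23 ± 0.10, adjusted p = 0.0907), and did with the replicate number as a block (adjusted p = 0.0292, limma) and with replicate 4 of GLP-1 or 2 of Control left out (0.0281 to 0.0464).

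Fam46c stood at 37.3, 41.6, 37.3 and 41.2 RPM in Control, 21.4, 20.3, 21.1 and 24.7 RPM with GLP-1 and 20.9, 20.2, 18.0 and 20.0 RPM with BMS-21, 1.8-fold lower with GLP-1 (-0.84 ± 0.07, adjusted p = 4.59e-09) and 1.98-fold lower with BMS-21 (-0.99 ± 0.07, adjusted p = 1.33e-10). Mex3b, an RNA-binding protein, fell as well (-0.53 ± 0.09 and -0.75 ± 0.11). The exonuclease gene Exo5 fell (-0.38 ± 0.14, adjusted p = 0.0407, and -0.42 ± 0.11, adjusted p = 0.00625), and its call with GLP-1 ended with replicate 3 or 4 of GLP-1 or 1, 2 or 4 of Control left out (adjusted p 0.0633 to 0.152). In metabolism, Pdp2, a phosphatase that activates pyruvate dehydrogenase (-0.54 ± 0.10 and -0.52 ± 0.09), and Ppp1r3b, which targets protein phosphatase 1 to glycogen (-0.43 ± 0.06 and -0.52 ± 0.06), fell. Gadd45a stood at 38.7, 39.1, 38.0 and 35.8 RPM in Control, 20.8, 25.7, 23.5 and 22.5 RPM with GLP-1 and 28.4, 23.5, 27.9 and 24.8 RPM with BMS-21 and fell (-0.71 ± 0.07, adjusted p = 4.18e-08, and -0.54 ± 0.07, adjusted p = 1.49e-06). Cdc42ep4 (-0.37 ± 0.04 and -0.37 ± 0.05), Pik3ip1 (-0.58 ± 0.14 and -0.77 ± 0.14), Lysmd4 (-0.55 ± 0.09 and -0.42 ± 0.08) and the scaffold gene Anks4b (-0.18 ± 0.05 and -0.21 ± 0.05) fell with both agents.

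A few genes lay above Control at 6 h, the opposite side from 1 h. Cish stood at 85.7, 85.5, 85.8 and 84.3 RPM in Control, 93.5, 94.6, 99.7 and 103 RPM with GLP-1 and 103, 100, 115 and 112 RPM with BMS-21. It rose by 0.20 ± 0.04 with GLP-1 (adjusted p = 0.000745) and by 0.33 ± 0.05 with BMS-21 (adjusted p = 6.01e-06), and every treated library was above every Control library. Bambi stood at 37.9, 38.8, 42.8 and 41.7 RPM in Control, 44.2, 43.2, 53.7 and 46.4 RPM with GLP-1 and 46.3, 44.4, 57.8 and 47.6 RPM with BMS-21. It rose by 0.22 ± 0.06 (adjusted p = 0.0129, 0.0591 with replicate 3 of GLP-1 left out) and 0.28 ± 0.07 (adjusted p = 0.00417), again with no overlap. Rap2b stood at 4.58, 4.07, 4.37 and 3.69 RPM in Control, 6.79, 6.44, 5.95 and 5.63 RPM with GLP-1 and 6.64, 4.94, 5.15 and 4.70 RPM with BMS-21. It was 1.48-fold higher with GLP-1 (0.57 ± 0.12, adjusted p = 0.00136), and with BMS-21 it did not pass (0.35 ± 0.14, adjusted p = 0.0587, 0.0476 with replicate 4 of BMS-21 left out) although its groups did not overlap. The decrease of these 3 genes at 1 h and the values at 6 h thus lie on opposite sides of Control for both agents, and the change between the times was not tested, because the 1 h libraries chose the genes.

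Zfp46 and ENSRNOG00000023233, a gene without a symbol, were also above Control. Zfp46 stood at 16.6, 19.0, 21.5 and 20.1 RPM in Control, 20.4, 22.5, 26.0 and 22.9 RPM with GLP-1 and 21.6, 21.0, 30.1 and 24.7 RPM with BMS-21 (0.25 ± 0.08, adjusted p = 0.0265, and 0.33 ± 0.10, adjusted p = 0.0218). Its groups overlapped, and its calls ended with replicate 3 or 4 of the agent or 1 or 2 of Control left out (adjusted p 0.0542 to 0.112). ENSRNOG00000023233 stood at 2.21, 2.08, 3.23 and 2.46 RPM in Control, 3.06, 4.35, 3.33 and 3.35 RPM with GLP-1 and 3.90, 3.72, 3.41 and 4.06 RPM with BMS-21 (0.50 ± 0.17, adjusted p = 0.0338, and 0.60 ± 0.16, adjusted p = 0.00698). Its call with GLP-1 ended with replicate 2 or 4 of GLP-1 or 1, 2 or 4 of Control left out (adjusted p 0.0530 to 0.120). With scaling by library totals, 2 members rose with GLP-1 in place of 5, and with replicate 1 of Control or 3 or 4 of GLP-1 left out the number was 3.

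**Figure D3:**
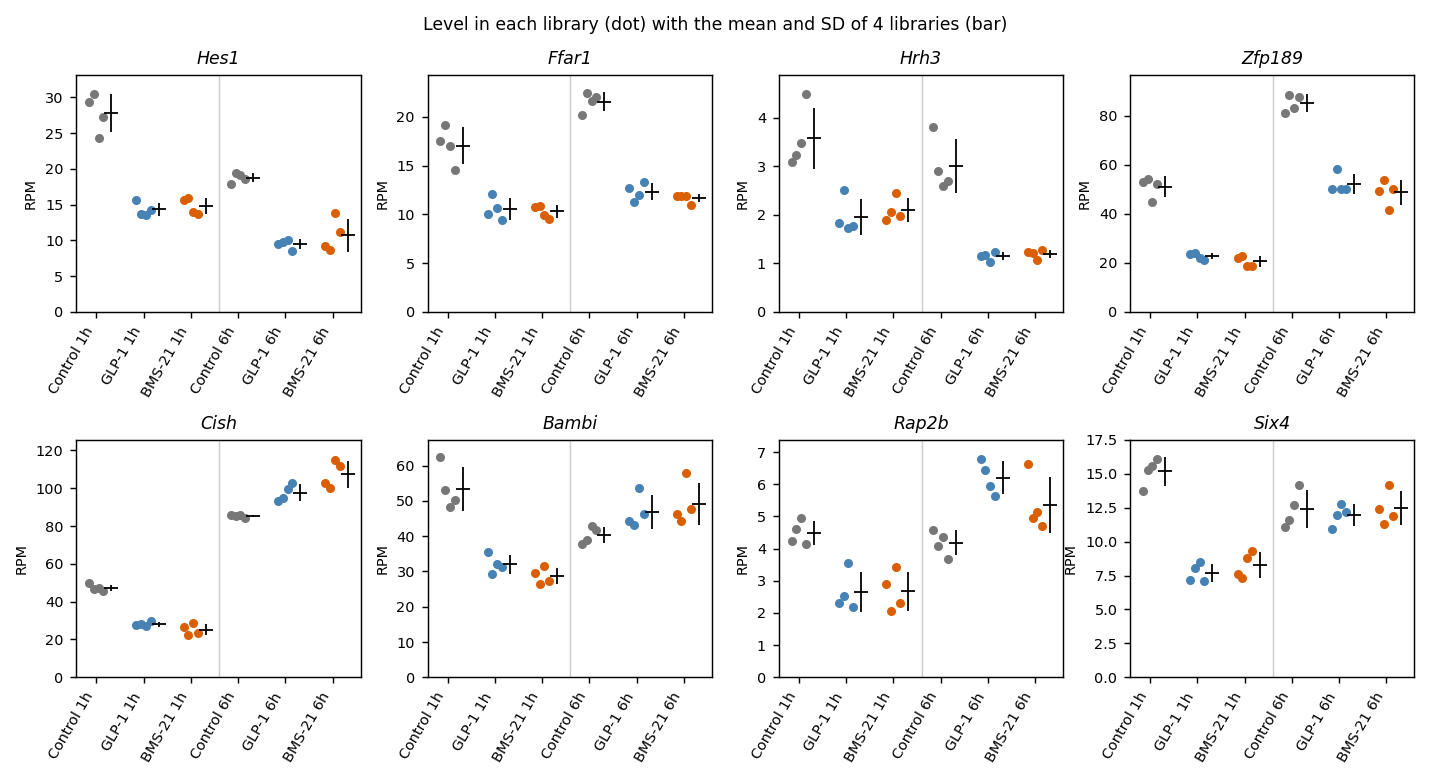
Level in RPM (vertical axes, from 0) of 8 of the genes in each of the 24 libraries (dots) by group (horizontal axes: Control grey, GLP-1 blue, BMS-21 orange), with the mean and SD of 4 libraries. Hes1, Ffar1, Hrh3 and Zfp189 lie below Control at both times, Cish, Bambi and Rap2b lie below it at 1 h and above it at 6 h, and Six4 overlaps Control at 6 h.

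Other genes chosen as lower than Control at 1 h, some of them close to the threshold there, did not pass at 6 h. Phlda1 stood at 23.4, 22.4, 23.0 and 21.9 RPM in Control, 17.7, 17.6, 24.1 and 19.6 RPM with GLP-1 and 19.3, 18.3, 29.3 and 23.7 RPM with BMS-21 (-0.21 ± 0.09, adjusted p = 0.0728, and -0.02 ± 0.12, adjusted p = 0.906). Its GLP-1 difference passed with the replicate number as a block (limma adjusted p = 0.0125) and with replicate 3 of GLP-1 left out (adjusted p = 0.00324). Trib1 stood at 45.5, 40.2, 54.9 and 43.7 RPM in Control, 35.9, 33.6, 48.6 and 33.5 RPM with GLP-1 and 38.7, 41.0, 56.9 and 40.0 RPM with BMS-21 (-0.29 ± 0.14, adjusted p = 0.162, and -0.07 ± 0.14, adjusted p = 0.757). Replicate 3 was its highest library in every group. With the block the GLP-1 difference passed (limma adjusted p = 1.01e-06), and with replicate 3 of GLP-1 left out it did too (adjusted p = 0.000578). Bbs10 stood at 9.99, 8.89, 9.30 and 9.99 RPM in Control, 8.12, 8.45, 10.4 and 7.40 RPM with GLP-1 and 8.96, 8.13, 8.48 and 8.45 RPM with BMS-21 (-0.16 ± 0.11, adjusted p = 0.291, and -0.16 ± 0.09, adjusted p = 0.198). Gprin2 stood at 3.20, 2.91, 2.91 and 2.21 RPM in Control, 1.90, 2.85, 3.57 and 3.08 RPM with GLP-1 and 1.66, 2.96, 2.91 and 2.63 RPM with BMS-21 (0.00 ± 0.19, adjusted p = 0.996, and -0.16 ± 0.19, adjusted p = 0.567). Neither Bbs10 nor Gprin2 passed, and their groups overlapped. The LDL receptor ubiquitin ligase gene Mylip (-0.06 ± 0.06 and -0.08 ± 0.05), Dact2 (-0.14 ± 0.06 and -0.08 ± 0.06), the orphan receptor gene Nr0b2 (0.08 ± 0.16 and -0.28 ± 0.17), Sall2 (0.13 ± 0.09 and 0.09 ± 0.08) and the retinoic acid hydroxylase gene Cyp26b1 (0.31 ± 0.17 and 0.18 ± 0.18) did not pass either. Cyp26b1 passed as higher with GLP-1 when replicate 2 of Control was left out (0.47 on the log2 scale, adjusted p = 0.0459 with limma).

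Control itself differed between the times, which sets the level each 6 h value is read against. From 1 h to 6 h the Control level was lower for 30 of the 56 genes and higher for 26, with a median log2 difference of -0.10 beside 0.0024 over the 11909 genes. The changes ran from -1.36 to 1.12. P2ry1 (-0.99), Myc (-0.82) and Phlda1 (-0.69) were among the lower ones, and Prok2 (1.12), Zfp46 (0.85), Cish (0.85), Zfp870 (0.84) and Fzd9 (0.82) among the higher ones. The level in treated cells was higher at 6 h than at 1 h for 47 of the 56 genes with each agent, and the share over all genes was not counted. These libraries include those that chose the genes, so the values are a description.

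BMS-21 and GLP-1 could be compared directly, at 1 µM and 100 nM. At 1 h the agent libraries are those the rule used. Since it asked for a decrease with both against the same Control, it favours genes on which they are alike, and the values at 1 h are given as a description, with no test. The log2 differences of BMS-21 minus GLP-1 ran from -0.38 to 0.43 with a median of -0.00071. Bambi was at -0.16 and Cish at -0.16.

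At 6 h 0 members fell and 0 rose with limma, beside 0.00792% and 0.00792% of all 12629 genes (1 gene each way). At an unadjusted p under 0.05 there were 5 members, beside 800 of all 12629 genes. Of all genes, edgeR called 0 and DESeq2 10. Differences ran from -0.37 to 0.40 with a median of 0.03, and the interval lay within -0.5 to 0.5 for 41 members. The share of all genes with such an interval was not counted. With the replicate number as a block 3 members were higher with BMS-21. The shares of all genes above are from the fit without the block, and those with it were not counted. They were Cish, at 0.13 (95% interval 0.06 to 0.21 with the block, adjusted p = 0.645 without and 0.0314 with it, limma), Fzd9, at 0.25 (0.11 to 0.38, adjusted p = 0.636 and 0.04995), and Trib1, at 0.22 (0.11 to 0.32, adjusted p = 0.881 and 0.0120). Dose and agent differ together in this comparison.

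**Figure D4:**
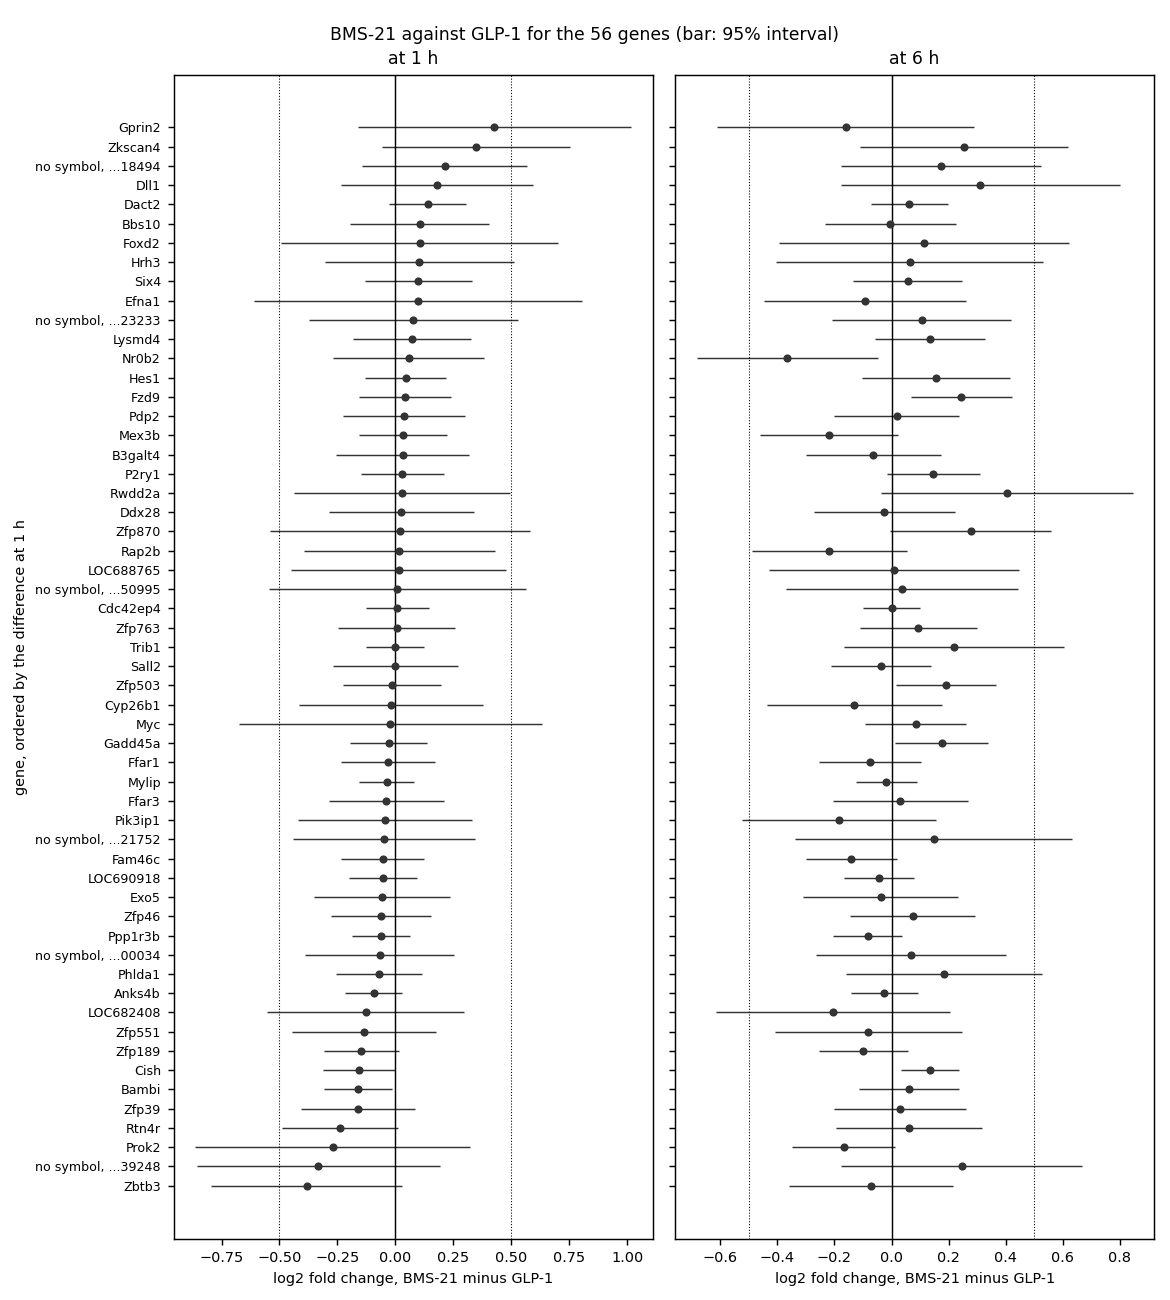
Log2 fold change of BMS-21 minus GLP-1 (horizontal axes) with its 95% interval for the 56 genes (vertical axis) at 1 h (left) and 6 h (right), with dotted lines at -0.5 and 0.5. The differences lie between -0.38 and 0.43 at 1 h, in the libraries that chose the genes, and between -0.37 and 0.40 at 6 h.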

How the data were processed

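RNA of 24 INS-1 libraries was sequenced with an unstranded kit, per the labels' protocols. The authors deposited 6 tables of normalised counts per gene (a signal unit: reads divided by 1 size factor per library). Per the submitters' processing notes the build was Rnor_5.0 and the tools were TopHat2 2.0.12, Bowtie2 2.2.3.0, SAMtools 0.1.19.0, Subread, DESeq and DESeq2 1.6.3, and which step used which is not given in the sources used here. All values (100%, within 0.001 reads plus 1e-06 of the count) were whole multiples of 1 step per library, and the whole reads recovered were the same in both tables that hold a library, for all 24. In 11 of the 48 columns 1 read was worth within 1.2% of 1, where such a step is harder to tell from rounding. Levels are recovered reads per 1000000 with TMM scaling (edgeR 4.0.16).

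Comparisons used limma 3.58.1 (trend, robust, R 4.3.3) within 1 table on log2 of the deposited values plus 1, leaving out genes whose mean was under 10, with Benjamini-Hochberg adjustment over all genes and a threshold of 0.05. Log2 differences on this scale understate changes of low genes. The limma fit was tested on counts simulated with the same spread setting for every gene and no replicate effect. These libraries differ from that setting, so the test is no measure of error rates here. edgeR and DESeq2 1.42.0 on recovered reads, other pseudocounts, filters and scalings, a replicate block, pairs of replicates and leaving out each library were alternatives.

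The genes and lists were chosen with earlier results of these data known, and roles were assigned by hand. Values in every library are given for the 10 genes with the lowest ratios at 1 h, those highest and lowest at 6 h, members of the pathway lists and the genes just inside the threshold. For genes just outside it the ratios are given. Up to 3 other genes of each list were named by adjusted p at 1 h.

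Replicate numbers in the labels are shared by all groups. Deviations of same-numbered libraries from their group means correlated at 0.117 to 0.242 in 5 of the comparisons, and at 0.0738 to 0.186 in BMS-21 against Control at 6 h. The numbers were taken to pair the samples in the 5, from the data alone, since no label says what a number marks. The main fits did not use this pairing, which entered only as the replicate block among the alternatives. Promoter sequences and gene neighbours are from RefSeq (GRCr8), matched by symbol for 47 of the 56 genes, and no Rnor_5.0 coordinates are used here. Not every marker gene is reported here.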

Additional observations from a re-analysis of the deposited data

Results flagged for a closer look

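A library stood apart from the other 3 of its group by Dixon's 95% criterion in 10 of 162 groups examined, where chance flags about 5%. Zfp189 was 58.2 RPM in GLP-1 6h replicate 2, against 50.0 to 50.2 RPM in the others. Zfp870 was 0.745 RPM in BMS-21 1h replicate 1, against 1.75 to 1.87 RPM. Phlda1 was 20.5 RPM in BMS-21 1h replicate 3 (16.1 to 16.8 RPM in the others), and Hrh3 was 2.52 RPM in GLP-1 1h replicate 2 (1.73 to 1.83 RPM). Efna1 at 6 h was 3.57 RPM in replicate 1 of BMS-21 (2.55 to 2.58 RPM) and 3.56 RPM in replicate 1 of GLP-1 (2.73 to 2.85 RPM). Ffar1 was 11.0 RPM in BMS-21 6h replicate 4, just below the others at 11.9 RPM, and Prok2 was 16.8 RPM in GLP-1 6h replicate 3 (21.4 to 21.8 RPM). Trib1 at 6 h was 56.9 RPM in replicate 3 of BMS-21 (38.7 to 41.0 RPM) and 48.6 RPM in replicate 3 of GLP-1 (33.5 to 35.9 RPM).

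For Cish, Bambi and Rap2b every treated library lay below Control at 1 h and above it at 6 h. The log2 differences at 6 h were 0.199 (GLP-1) and 0.331 (BMS-21) for Cish, beside -0.750 and -0.909 at 1 h. They were 0.218 and 0.276 for Bambi, beside -0.731 and -0.893, and 0.567 and 0.346 for Rap2b, beside -0.765 and -0.748. The difference between the times was not tested, because the 1 h values chose the genes.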

How the results depend on the processing

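Of the 112 results of single genes at 6 h (56 genes, each agent against Control), 61 kept both the call and the sign under all of up to 23 alternatives. A value that changed sign without passing in either fit kept its call but is not among the 61. Among 2099 values under alternatives, 83 lost a call, 33 gained one and 52 changed sign, none of the latter past the threshold in either fit. The cause of the changes was not tested. The list genes at 1 h were followed under alternatives chosen after seeing the data. Genes of few reads (Gprin2, Hrh3, Zfp870, Efna1) are limited by depth.

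Higher members with GLP-1 at 6 h (5) numbered 2 with scaling by library totals, 3 in replicates 3 and 4 alone, and 3 to 5 with 1 library left out. Library totals moved the share of lower calls from 84.8% to 93.9% (31 lower, 2 higher). Members higher with BMS-21 than GLP-1 at 6 h (0) numbered 1 in replicates 3 and 4 alone. Other list genes lower at 1 h with GLP-1 (3) numbered 6 with library totals, 5 in replicates 1 and 2 alone and 3 to 5 with 1 library left out, and with BMS-21 (6) 2 in replicates 3 and 4 alone and 3 to 6 with 1 library left out. Shares over all genes were not counted under these alternatives.

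With the replicate number as a block, which pairs the libraries, 3 members were higher with BMS-21 than GLP-1 at 6 h, 8 list genes were lower with GLP-1 at 1 h, and Phlda1, Zfp763 and Trib1 were lower with GLP-1 at 6 h. In BMS-21 against Control at 6 h, where the numbers did not meet the rule for pairing, the block gave calls on Rap2b (adjusted p = 0.0353), Fzd9 (0.0408) and ENSRNOG00000039248 (0.0312, limma). The block changed no other call on a member, and shares over all genes were not counted with it.

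Log2 values that changed sign with GLP-1 at 6 h were, in replicates 1 and 2 alone, Gprin2 -0.375, Six4 0.0154, Nr0b2 -0.0368 and Zfp551 0.00965, and in replicates 3 and 4 alone, Myc 0.0130, Rwdd2a 0.222 and B3galt4 0.00406. With library totals they were Gprin2 -0.0498 and LOC682408 -0.0201, with TMM Gprin2 -0.000981, and Rwdd2a was 0.00230 with edgeR and 0.00795 with DESeq2. With BMS-21 they were, in replicates 1 and 2 alone, Myc -0.0365, Foxd2 -0.121 and Cyp26b1 -0.0484. In replicates 3 and 4 alone they were Phlda1 0.237, Gprin2 0.121, Six4 -0.0447, Zkscan4 -0.0991, Fzd9 0.0300, Zfp503 0.0276 and 2 genes without a symbol 0.0753 and -0.0943. With library totals they were Six4 -0.0467, Myc -0.0133 and Zkscan4 -0.0506.

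With 1 library left out, values that crossed 0 with GLP-1 ranged for Gprin2 from -0.114 to 0.176, for Six4 from -0.0906 to 0.0212, for Myc from -0.100 to 0.00363, for Nr0b2 from -0.0279 to 0.233, for Foxd2 from -0.0392 to 0.290, for LOC682408 from -0.0361 to 0.107 and for Rwdd2a from -0.173 to 0.106. With BMS-21 they ranged for Phlda1 from -0.155 to 0.0692, for Gprin2 from -0.271 to 0.0233, for Six4 from -0.0535 to 0.0750, for Myc from -0.00758 to 0.0968, for Zkscan4 from -0.129 to 0.0707 and for Trib1 from -0.197 to 0.0166.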
